A study of Mus musculus with 9 samples.

Results

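The genes described here are 10 genes of MHC class I antigen presentation, out of 19698 mouse genes that the arrays measured. The set was defined by the genes' known role, with earlier results of these data already known, and holds the heavy chains H2-K1 and H2-D1, the light chain B2m, the peptide transporter subunits Tap1 and Tap2, the loading chaperone Tapbp, the immunoproteasome subunits Psmb8 and Psmb9, the proteasome activator subunit Psme1 and the class I transactivator Nlrc5. Each gene was read from its brightest probe. The study irradiated the left lung of C57BL/6 mice and profiled total lung RNA on one-color Agilent arrays of the mouse genome. The control group holds 4 arrays and the irradiated group, labeled as left lung tissue that had received radiation, holds 5. The mice were males, labeled as 10 weeks old, while their age when the lungs were collected is not given for single arrays, and animals were anesthetized with zoletil and rompun for the irradiation. No dose, lung region or time after irradiation is attached to a single array by the labels, while the study's methods describe a high dose to a small central area and a lower dose to a diffuse region, followed over several times, so the irradiated arrays may differ among themselves in these. According to the methods RNA of repeated experiments was pooled before labeling, and nothing says which animals stand behind an array. The p-values below therefore measure only the spread between these arrays, which may be technical in part.

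In nucleated cells, proteins of the cytosol are cut by the proteasome, and the TAP transporter pumps the resulting peptides into the endoplasmic reticulum. There the heavy chain pairs with beta-2 microglobulin and is loaded with a peptide with the help of tapasin, and the finished complex travels to the surface, where CD8 T cells and natural killer cells read it. Interferons raise the whole chain of genes together, swap immunosubunits into the proteasome and act through STAT and IRF factors and through NLRC5 on the class I promoters. Ionizing radiation is known to raise class I on the surface of many cell types. In whole lung the signal comes from every cell, with leukocytes, endothelium and epithelium all carrying class I, so that fewer cells of a type and less RNA per cell cannot be told apart.

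Between 72.8% and 89.1% of gene probes were well above background on an array, and the median background was 24.0 to 45.5 intensity units. All 10 genes were well above background on all 9 arrays, and no spot of any gene was saturated. A pair of arrays stood apart in muscle transcripts. Of the skeletal muscle markers Tnnc2 and Acta1 were well above background on all arrays, and on control 3 they read 15.63 and 14.67 in log2 intensity, against 7.27 to 8.13 and 8.96 to 10.24 on the irradiated arrays. On irradiated 1 the cardiac marker Myh6 read 7.33, against 15.87 to 16.98 on the controls. Values without this pair of arrays are given below for the 10 members and, among the other genes, for Procr and Lilrb4a. Markers of lung were present throughout, with the summed intensity of 5 type II alveolar markers at 1300000 to 1370000 intensity units on control arrays and 1220000 to 1340000 on irradiated arrays.

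No class I gene passed the test between irradiated and control lung. With limma, 0 of 10 members had an adjusted p under 0.05, against 0.416% of all genes, and 0 of 10 had an unadjusted p under 0.05, against 12.3% of all genes in either direction and 7.37% that were higher. The adjusted p-values of the members ran from 0.588 to 0.987. Of the 10 fitted differences 9 were above 0 and 1 was below, with a median of 0.13 on the log2 scale, beside a median of 0.0085 over all genes, of which 51.9% were above 0. Single arrays moved the members' median by more than 1.5 times: it was 0.22 without control 1, 0.04 without control 3, 0.08 without control 4, 0.23 without irradiated 1, 0.03 without irradiated 2 and 0.06 without irradiated 3. Among the 5237 genes with a mean log2 intensity of 12 or more, which is the range of most members, the median was 0.003 and 50.8% were above 0. Members share arrays and regulators, so their common sign is a description of these arrays and not 10 separate observations. The precision was limited: the median 95% interval of a member reached 0.40 to either side, and the highest upper bound among the members was 0.78, that of B2m. No member had irradiated and control arrays that did not overlap, a pattern that 3.4% of all genes showed in the upward direction.

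**Figure D1:**
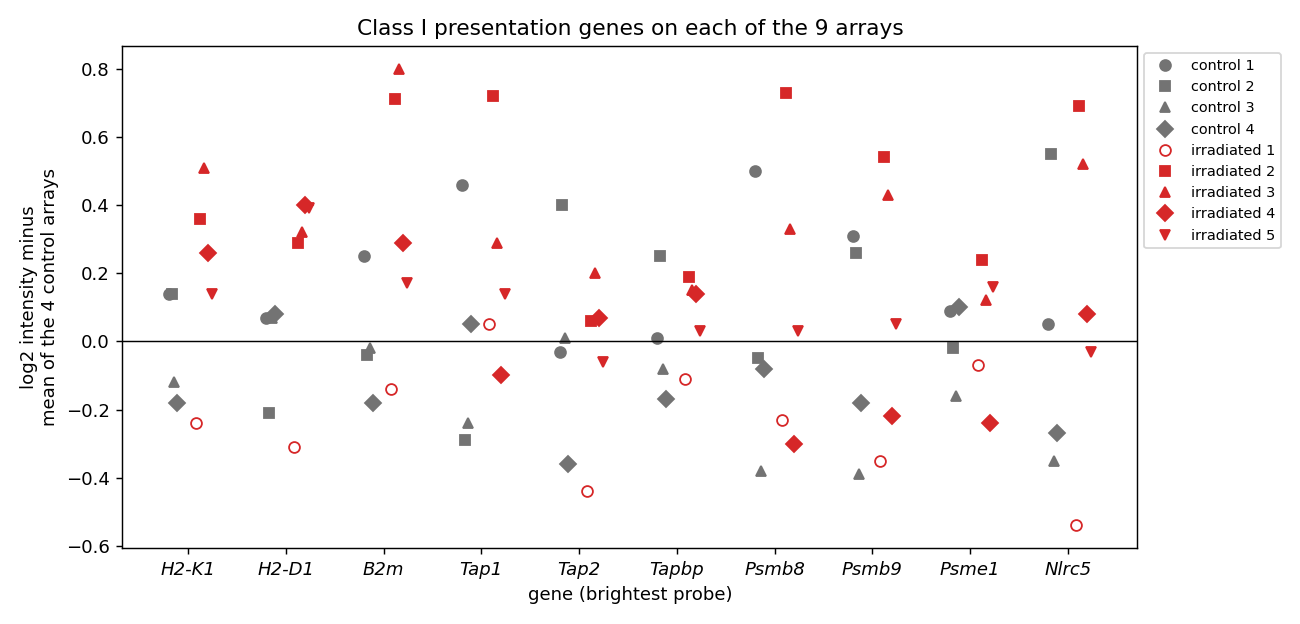
Log2 intensity of the 10 class I presentation genes on each array, shown against the control mean (y axis), with control arrays in gray and irradiated arrays in red. Irradiated 2 and 3 are high for most genes and irradiated 1, the open circle, is low for most, so that the groups overlap for every gene.

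The heavy chains and the light chain form the surface molecule itself. H2-K1 and H2-D1 encode the classical heavy chains of this strain. Of the 8 members with promoters in the RefSeq table for GRCm38.p6 (Tap2 and Nlrc5 were not listed), H2-K1 and H2-D1 were the only ones to hold kappaB, interferon response and X2 cores. The search covered both strands of the 250 bases before each start and used 5 short cores: the kappaB core GGGNNTTCC, the interferon-stimulated response element core GAANNGAAA, the X2 box core TGACGC, the Y box core CCAAT and the GAS core TTCNNNGAA. The windows below are shown because they set the heavy chains, the light chain and the transporter side by side. They run 5' to 3' on the strand of the gene, from chr17:34000348-34000472 (minus strand) for the first listed start of H2-K1, chr17:35262909-35263093 (plus) for H2-D1, chr2:122147487-122147686 (plus) for B2m and chr17:34187331-34187555 (plus) for Tap1, and capitals mark matches on either strand. The gene record of H2-K1 reaches further upstream than the start used.
H2-K1: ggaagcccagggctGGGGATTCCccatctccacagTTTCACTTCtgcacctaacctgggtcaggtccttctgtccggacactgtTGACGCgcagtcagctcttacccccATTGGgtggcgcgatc
H2-D1: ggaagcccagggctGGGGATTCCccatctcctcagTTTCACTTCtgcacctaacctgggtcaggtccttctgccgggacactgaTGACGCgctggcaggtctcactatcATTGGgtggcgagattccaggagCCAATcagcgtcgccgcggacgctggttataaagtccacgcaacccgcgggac
B2m: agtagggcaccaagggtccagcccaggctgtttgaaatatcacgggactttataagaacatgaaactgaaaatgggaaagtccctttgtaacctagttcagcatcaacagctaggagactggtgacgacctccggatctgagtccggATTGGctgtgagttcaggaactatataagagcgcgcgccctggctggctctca
Tap1: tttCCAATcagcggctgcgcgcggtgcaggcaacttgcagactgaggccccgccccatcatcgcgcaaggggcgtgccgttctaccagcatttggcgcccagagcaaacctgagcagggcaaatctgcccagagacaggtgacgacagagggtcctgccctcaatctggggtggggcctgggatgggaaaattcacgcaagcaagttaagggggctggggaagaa
In the H2-K1 window the kappaB core lay 111 to 103 bases before the start, the response element core 90 to 82 (minus strand), the X2 core 41 to 36 and the Y core 16 to 12 (minus). For H2-D1 the same order held at 171 to 163, 150 to 142, 101 to 96 and 76 to 72 bases, with 1 more CCAAT at 53 to 49. H2-K1 also had 1 more CCAAT, 6 to 2 bases before its other listed start and beyond the end of the printed window. From that start its Y core lay at 30 to 26. From kappaB to Y box the pair of genes was identical at 89 of 100 positions. The B2m window held the Y core, 53 to 49 bases before the start, and no match to the exact letters of the other 4, which says nothing of sites with other letters or spacing. A kappaB core was found in 4.98% of all 32851 promoters, a response element core in 6.31%, an X2 core in 6.12% and a Y core in 33.8%, and among the 8 listed members these counted 2, 2, 2 and 6. A match shows only that the letters are present.

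H2-K1 read 17.57, 17.57, 17.31 and 17.25 on controls 1 to 4 in log2 intensity. On irradiated 1 to 5 it read 17.19, 17.79, 17.94, 17.69 and 17.57. Irradiated 2 to 5 lay above the highest control, irradiated 5 by less than the rounding, and irradiated 1 lay below all controls. The means were 17.43 ± 0.17 (SD, n = 4) and 17.64 ± 0.28 (SD, n = 5), a difference of 0.21 with an SE of 0.15, or 1.16-fold with a 95% interval of 0.921 to 1.46 (limma adjusted p = 0.73, exact two-sided permutation p = 0.222). This probe was printed as 10 spots on each array, whose log2 values had a median SD of 0.0594 within an array, less than the SD of 0.17 between control arrays. A second, dimmer probe of H2-K1 gave a like difference of 0.20 with an SE of 0.13 (limma adjusted p = 0.695).

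H2-D1 read 16.85, 16.57, 16.85 and 16.86 on the controls. Its irradiated values were 16.47, 17.07, 17.10, 17.18 and 17.17. Again irradiated 2 to 5 were all above the controls and irradiated 1 was below all of them. The means of 16.78 ± 0.14 (SD, n = 4) and 17.00 ± 0.30 (SD, n = 5) differed by 0.22 with an SE of 0.15, or 1.16-fold with a 95% interval of 0.921 to 1.47 (limma adjusted p = 0.726, exact two-sided permutation p = 0.238). Probe sequences were not used here, and how far the probes for H2-K1 and H2-D1 read each other's or related class I transcripts was not tested.

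B2m, the light chain shared by all class I molecules, had the largest difference of the 10 members. Controls read 17.18, 16.89, 16.91 and 16.75, and irradiated arrays read 16.79, 17.64, 17.73, 17.22 and 17.10. Irradiated 2, 3 and 4 exceeded every control, while irradiated 1 and 5 fell within the control range. The group means were 16.93 ± 0.18 (SD, n = 4) and 17.29 ± 0.39 (SD, n = 5), a difference of 0.36 with an SE of 0.19, or 1.28-fold with a 95% interval of 0.961 to 1.71 (limma adjusted p = 0.588, exact two-sided permutation p = 0.159). The smallest p that 4 against 5 arrays allow in the exact test is 0.00794.

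Without control 3 and irradiated 1 the differences of these 3 genes were 0.28 for H2-K1 (limma adjusted p = 0.517), 0.38 for H2-D1 (0.192) and 0.48 for B2m (0.403). Leaving out irradiated 1 alone gave 0.32, 0.35 and 0.49, with limma adjusted p-values of 0.304, 0.119 and 0.247. In the first of these settings 0 of 10 members had an adjusted p under 0.05, against 0.539% of all genes, and 2 of 10 (H2-D1 and B2m) had an unadjusted p under 0.05, against 6.73% that were higher. In the second there were 0 of 10, against 1.69%, and 3 of 10 unadjusted, against 7.7% that were higher. Irradiated 1 minus the control mean was -0.23 for H2-K1, -0.32 for H2-D1 and -0.14 for B2m.

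The transporter subunits had differences of opposite sign, neither of which passed the test. Tap1 and Tap2 together form the channel that carries peptides into the endoplasmic reticulum. For Tap1 the controls read 10.22, 9.47, 9.52 and 9.81 and the irradiated arrays 9.81, 10.48, 10.05, 9.66 and 9.90. Control 1 exceeded all irradiated arrays other than irradiated 2, and the means of 9.76 ± 0.34 (SD, n = 4) and 9.98 ± 0.31 (SD, n = 5) differed by 0.22 with an SE of 0.20 and a 95% interval of -0.23 to 0.67 (limma adjusted p = 0.817). That difference became 0.38 without control 1 and 0.10 without irradiated 2. Its 10 spots per array had a median SD of 0.0484, against an SD of 0.34 between control arrays. Tap2 read 14.44, 14.87, 14.48 and 14.11 on controls and 14.03, 14.53, 14.67, 14.54 and 14.41 on irradiated arrays, with the highest value on control 2 and the lowest on irradiated 1. Tap2 was the only member with a difference below 0, at -0.04 with an SE of 0.17 and a 95% interval of -0.41 to 0.33 (limma adjusted p = 0.987), and this sign turned under 75th percentile scaling, where the difference was 0.01. The difference between the responses of Tap1 and Tap2 was not tested.

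Tapbp encodes tapasin, which bridges the transporter and the empty heavy chain. It read 14.17, 14.41, 14.08 and 13.99 on controls and 14.05, 14.35, 14.31, 14.30 and 14.19 on irradiated arrays. Every irradiated value lay within the range of the controls. The means were 14.16 ± 0.18 (SD, n = 4) and 14.24 ± 0.12 (SD, n = 5), a difference of 0.08 with an SE of 0.10 and a 95% interval of -0.15 to 0.31 (limma adjusted p = 0.894). It ranged from 0.02 without control 4 to 0.16 without control 2.

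Psmb8 and Psmb9 are catalytic subunits of the immunoproteasome, and Psme1 is a subunit of the PA28 ring that opens the proteasome. Psmb8 read 14.12, 13.57, 13.24 and 13.54 on controls and 13.39, 14.35, 13.95, 13.32 and 13.65 on irradiated arrays. Psmb9 read 14.13, 14.08, 13.43 and 13.64 on controls and 13.47, 14.36, 14.25, 13.60 and 13.87 on irradiated arrays. For both genes control 1 and irradiated 2 were high and control 3 was lowest. The differences were 0.11 with an SE of 0.23 for Psmb8 (95% interval -0.41 to 0.63, limma adjusted p = 0.95) and 0.09 with an SE of 0.22 for Psmb9 (-0.39 to 0.57, 0.961). Both turned below 0 without control 3, to -0.02 and -0.04, and without irradiated 2, to -0.04 and -0.02. Psme1 read 14.72, 14.61, 14.47 and 14.73 on controls and 14.56, 14.87, 14.75, 14.39 and 14.79 on irradiated arrays. Its difference was 0.04 with an SE of 0.11 and a 95% interval of -0.21 to 0.28, the narrowest interval but one among the members (limma adjusted p = 0.97). It turned to -0.02 without control 3 and to -0.01 without irradiated 2. Tap1 and Psmb9 are neighbors read in opposite directions from starts 226 bases apart, so the printed Tap1 window is the whole stretch between them. Its 1 match is the CCAAT near its 5' end, which is also the Y core counted for Psmb9.

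Nlrc5 encodes the transactivator that binds at class I promoters. Controls read 12.17, 12.67, 11.77 and 11.85, and irradiated arrays read 11.58, 12.81, 12.64, 12.20 and 12.09. The highest value was on irradiated 2 and the lowest on irradiated 1, with control 2 close to the top. Means of 12.12 ± 0.41 (SD, n = 4) and 12.26 ± 0.48 (SD, n = 5) gave a difference of 0.15 with an SE of 0.26 and a 95% interval of -0.44 to 0.73, the widest among the members (limma adjusted p = 0.931). It was 0.33 without control 2, 0.32 without irradiated 1 and 0.01 without irradiated 2. A second probe of Nlrc5 gave -0.01 with an SE of 0.31 (limma adjusted p = 1.0), so the probes disagreed in sign and neither passed the test. Without control 3 and irradiated 1 the 7 members other than H2-K1, H2-D1 and B2m had differences between 0.01 (Psme1) and 0.20 (Nlrc5), with limma adjusted p-values of 0.875 to 0.992.

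Averaged over the 10 genes, the level differed between arrays of the same group. Their mean relative to the control mean was 0.19, 0.10, -0.17 and -0.12 on controls 1 to 4. On irradiated 1 to 5 it was -0.24, 0.45, 0.37, 0.04 and 0.10. Irradiated 2 and 3 were thus above all controls, irradiated 4 and 5 lay inside the control range and irradiated 1 lay below it. Among the other 15245 genes well above background on all arrays, those closest to this mean profile over the 9 arrays, by root mean square difference in log2, were LOC547349 (0.0717), Scpep1 (0.0836), Selplg (0.0903), Ly6e (0.0941) and Galnt16 (0.0952). Their own group differences were 0.16, 0.17, 0.06, 0.11 and 0.19, and none passed the test. As they were chosen for profiles like that of the members, these differences are not separate observations.

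The order of the arrays in the scanner images gives a technical grouping. By the position of the first spot, control 1 and irradiated 2, control 2 and irradiated 3, control 3 and irradiated 4, and control 4 and irradiated 5 lay side by side on a scanned image, while irradiated 1 had no partner. These scan pairs were inferred from positions, and the labels do not give them. Each pair holds 1 array of each group, so that differences within pairs can be set beside the pooled ones. H2-K1 was higher on the irradiated array by 0.22, 0.37, 0.37 and 0.33 in pairs 1 to 4, H2-D1 by 0.22, 0.54, 0.33 and 0.31, and B2m by 0.45, 0.84, 0.31 and 0.35. Control 2 and irradiated 3 gave the largest difference of both H2-D1 and B2m.

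In all, 36 of 40 differences within a pair were above 0, a count for which no share over all genes was taken. Members share arrays and regulators, so these are not 40 separate observations. For 6 of 10 members (H2-K1, H2-D1, B2m, Tap1, Psmb8 and Psmb9) the irradiated array was higher in all 4 pairs, a pattern of 17.9% of all genes. Tap1 gave 0.25, 0.57, 0.14 and 0.09, Psmb8 0.23, 0.38, 0.07 and 0.10, and Psmb9 0.23, 0.17, 0.17 and 0.23. The exceptions were Tap2 in pair 2 (-0.20), Tapbp in pair 2 (-0.10), Nlrc5 in pair 2 (-0.03) and Psme1 in pair 3 (-0.08). So 3 of the 4 lower values came from the same pair of arrays, in which H2-D1, B2m and Tap1 had their largest differences.

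**Figure D2:**
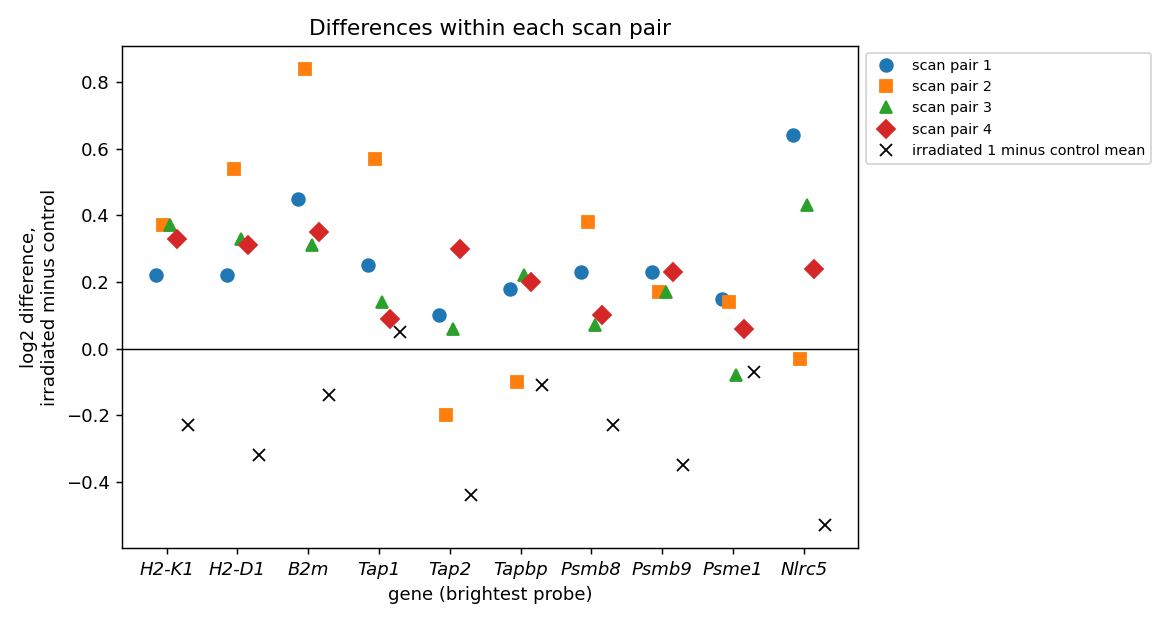
Log2 difference between the irradiated and the control array of each of the 4 scan pairs for each gene (colored symbols), with irradiated 1 minus the mean of the 4 controls as crosses. For H2-K1, H2-D1, B2m, Tap1, Psmb8 and Psmb9 all 4 pairs lie above 0, while the unpaired irradiated 1 lies below 0 for every gene but Tap1.

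With the scan pair as a block, a fit that leaves out the unpaired irradiated 1 and uses 8 arrays, 0 of 10 members had an adjusted p under 0.05, against 3.84% of all genes. At an unadjusted p under 0.05 there were 7 of 10, all higher, against 13.3% of all genes that were higher. The blocked difference was 0.32 for H2-K1 (SE 0.05, 95% interval 0.18 to 0.46, limma adjusted p = 0.0532), 0.35 for H2-D1 (SE 0.07, 0.18 to 0.53, 0.066) and 0.49 for B2m (SE 0.10, 0.23 to 0.75, 0.0771). Psmb9 followed with 0.20 (SE 0.05, limma adjusted p = 0.0869). For Tap1, Psmb8 and Nlrc5 the blocked differences were 0.26, 0.20 and 0.32, with limma adjusted p-values of 0.227, 0.192 and 0.214. Tap2 went from -0.04 to 0.07, Tapbp from 0.08 to 0.13 and Psme1 from 0.04 to 0.07, with limma adjusted p-values of 0.72, 0.396 and 0.571. Leaving out irradiated 1 with no block gave the same differences for all 10 members, as rounded here. The shifts from the fit of all 9 arrays thus go with leaving out that array and not with the block. With the pairs as a random block over all 9 arrays, 0 of 10 members had an adjusted p under 0.05, against 9.45% of all genes, and H2-K1, H2-D1 and B2m had an unadjusted p under 0.05 (3 of 10, against 14.7% that were higher). In that fit the smallest adjusted p among the members was 0.0647, for B2m.

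**Figure D3:**
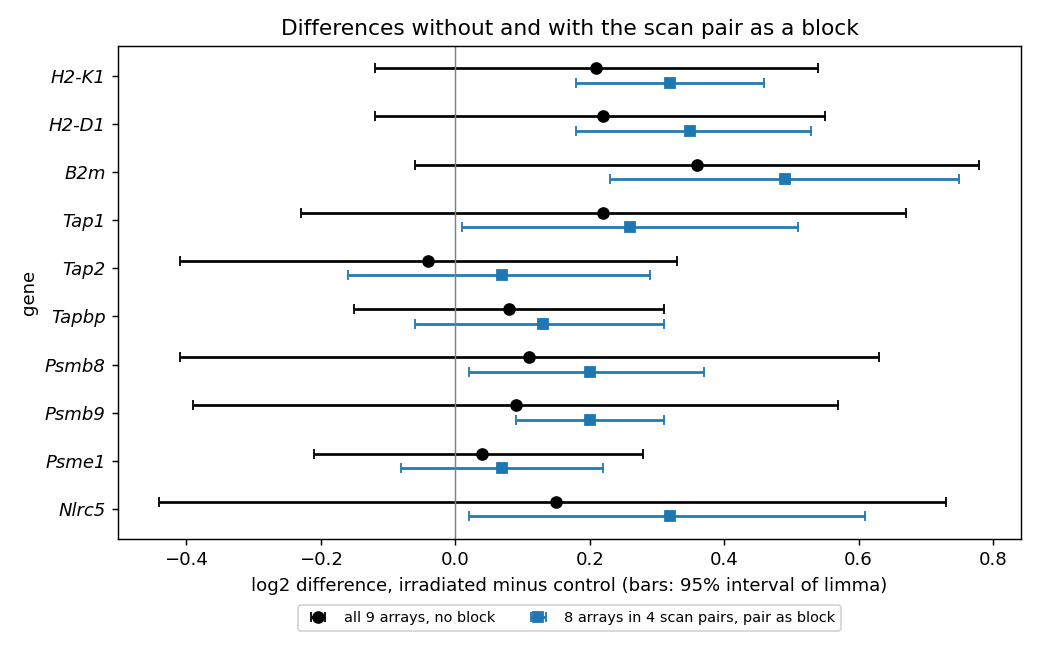
Log2 difference, irradiated minus control, for each gene with its 95% interval, from the fit of all 9 arrays (black circles) and from the fit of the 8 paired arrays with the scan pair as a block (blue squares). Intervals are shorter with the block, and those of H2-K1, H2-D1, B2m, Tap1, Psmb8, Psmb9 and Nlrc5 then lie above 0, although none of the 10 had an adjusted p under 0.05.

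The other genes of the pathway were taken as 7 lists with 108 measured genes out of 114. With limma, 0 of 108 had an adjusted p under 0.05, against 0.416% of all genes, and 15 had an unadjusted p under 0.05, against 12.3%. With the random block 12 of 108 had an adjusted p under 0.05, against 9.45%. Of the 108, 77 had a difference above 0 after rounding, whereas the counts per list below use unrounded differences. Below, the genes named are those of largest difference in each list unless said otherwise, and since none passed the test in the fit of all arrays they are given as values.

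Among the other class I heavy chains and class I-like genes, 13 of 18 measured genes had a difference above 0, with a median of 0.12, and 1 had an unadjusted p under 0.05. Procr, the endothelial protein C receptor, which has a class I-like fold but does not present peptides, was the largest. It averaged 10.85 on control and 11.72 on irradiated arrays, all 5 of which were above all controls, a pattern of 3.4% of all genes. The difference was 0.87 with an SE of 0.19 (limma adjusted p = 0.102). With the scan pair block it was 1.02 (0.0304), with the random block 0.96 (0.00429), and without control 3 and irradiated 1 0.91 (0.0355). In the scan pair block fit H2-T23, which encodes Qa-1, rose by 0.32 (adjusted p = 0.0438) and Cd1d1, which presents lipids, fell by 0.31 (adjusted p = 0.0466). Both calls were lost with the random block, where the adjusted p was 0.107 and 0.0749 with an estimated correlation, and both genes were named after their values were seen. H2-T3, counted in the median, was well above background on only 2 of 9 arrays, and among the other genes of the list the differences ran from -0.34 (Cd1d1) to 0.87.

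Peptide loading and trimming genes had 14 of 15 differences above 0, with a median of 0.19, and 5 had an unadjusted p under 0.05, 4 above 0 and 1 below. Hspa5, the endoplasmic reticulum chaperone BiP, averaged 15.46 on control and 15.91 on irradiated arrays, a difference of 0.45 with an SE of 0.15 (limma adjusted p = 0.288). All 5 irradiated arrays were again above all controls, a pattern of 3.4% of all genes. Canx, named after its values were seen, also showed this pattern, with a difference of 0.19 (limma adjusted p = 0.409). Hspa5 rose by 0.48 with the random block (0.022), as did the chaperone Calr by 0.36 (0.0448), named after its values were seen. With the scan pair block the adjusted p of Hspa5 and Calr was 0.0833 and 0.0717. Lap3, a leucine aminopeptidase, differed by 0.38 with an SE of 0.14 (0.38), by 0.48 with the scan pair block (0.041) and by 0.44 with the random block (0.0205).

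Of the proteasome subunits and activators 18 of 19 had a difference above 0, within a narrow range of -0.01 to 0.26 and with a median of 0.14, and 2 had an unadjusted p under 0.05. The 2 of largest difference were catalytic subunits of the constitutive proteasome, Psmb5 at 0.26 with an SE of 0.10 and Psmb6 at 0.21 with an SE of 0.09 (limma adjusted p = 0.422 for both). With the random block Psmb5 rose by 0.26 (0.0301), and with the scan pair block its adjusted p was 0.0652. These are the subunits that Psmb8 and Psmb9 replace in the immunoproteasome. Psmb10, the remaining immunosubunit, named for its role, gave 0.08 with an SE of 0.13 (limma adjusted p = 0.922).

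Regulators of class I transcription were spread around 0, with 8 of 15 above 0, a median of 0.00 and 0 with an unadjusted p under 0.05. The extremes were the NF-kappaB subunit Relb at 0.37 (limma adjusted p = 0.567) and the CRE-binding factor Creb1 at -0.28 (0.542). Relb rose by 0.43 with the random block (0.0489), and its adjusted p with the scan pair block was 0.0514. Interferon signalling genes had 14 of 15 differences above 0, with a median of 0.21, and 1 had an unadjusted p under 0.05. That list was led by Irf7, an interferon-induced factor, which averaged 8.97 on control and 9.69 on irradiated arrays, a difference of 0.72 with an SE of 0.27 (limma adjusted p = 0.367). With the random block Irf7 rose by 0.74 (0.0231) and Irf9, a partner of the STAT factors that was named after its values were seen, by 0.23 (0.0413), while with the scan pair block their adjusted p was 0.0564 and 0.0713. Ifnb1, the interferon beta gene, was well above background on only 2 of 9 arrays.

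The list of receptors that read class I, with related receptors, had 3 of 15 differences above 0, a median of -0.14 and a range of -0.60 to 1.38, and 3 had an unadjusted p under 0.05, 1 above 0 and 2 below. Klra17, a Ly49 family gene, gave 1.38 with an SE of 0.74 (limma adjusted p = 0.601), with values of 5.13 to 8.88 on irradiated arrays. Lilrb4a, a myeloid inhibitory receptor of the same family as class I receptors but not itself known to bind class I, averaged 13.99 on control and 14.64 on irradiated arrays, a difference of 0.65 with an SE of 0.27 (0.442). Lilrb4a was 0.91 higher with the scan pair block (0.0408), 0.80 higher with the random block (0.0315) and 0.84 higher without control 3 and irradiated 1 (0.0406). Klra7, another Ly49 family gene, named after its values were seen, fell by 0.59 with the random block (limma adjusted p = 0.0169), and was at -0.55 in the fit of all arrays (0.296) and -0.61 with the scan pair block (0.0586).

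Genes of MHC class II presentation, the parallel route by which antigen-presenting cells show peptides to CD4 T cells, had 9 of 11 differences above 0, with a median of 0.29, and 3 had an unadjusted p under 0.05, 2 above 0 and 1 below. The genes below 0 were H2-Oa and H2-Ob, which encode the DO chains that restrain class II peptide loading, both at -0.32 (limma adjusted p = 0.552 and 0.49). Ctss, the protease that clips the invariant chain, averaged 15.60 on control and 16.34 on irradiated arrays, a difference of 0.74 with an SE of 0.23 (limma adjusted p = 0.27). H2-Aa, the alpha chain of I-A, differed by 0.43 with an SE of 0.19 (0.497). With the scan pair block both rose, by 0.90 (0.0393) and 0.56 (0.0492), as did H2-Ab1 by 0.44 (0.0346), H2-Eb1 by 0.57 (0.0271) and Cd74, the invariant chain, by 0.47 (0.0368), the last 3 and the DO chains named after their values were seen. With the random block over all 9 arrays Ctss and H2-Aa still passed, whereas H2-Ab1, H2-Eb1 and Cd74 did not (adjusted p = 0.126, 0.0673 and 0.132 with an estimated correlation). The class II list averaged -0.33 on irradiated 1, which the scan pair block leaves out. With the scan pair block 10 of the 108 pathway genes passed, 9 of them higher and Cd1d1 lower, against 3.84% of all genes. Whether class I and class II genes differed in their response was not tested.

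**Figure D4:**
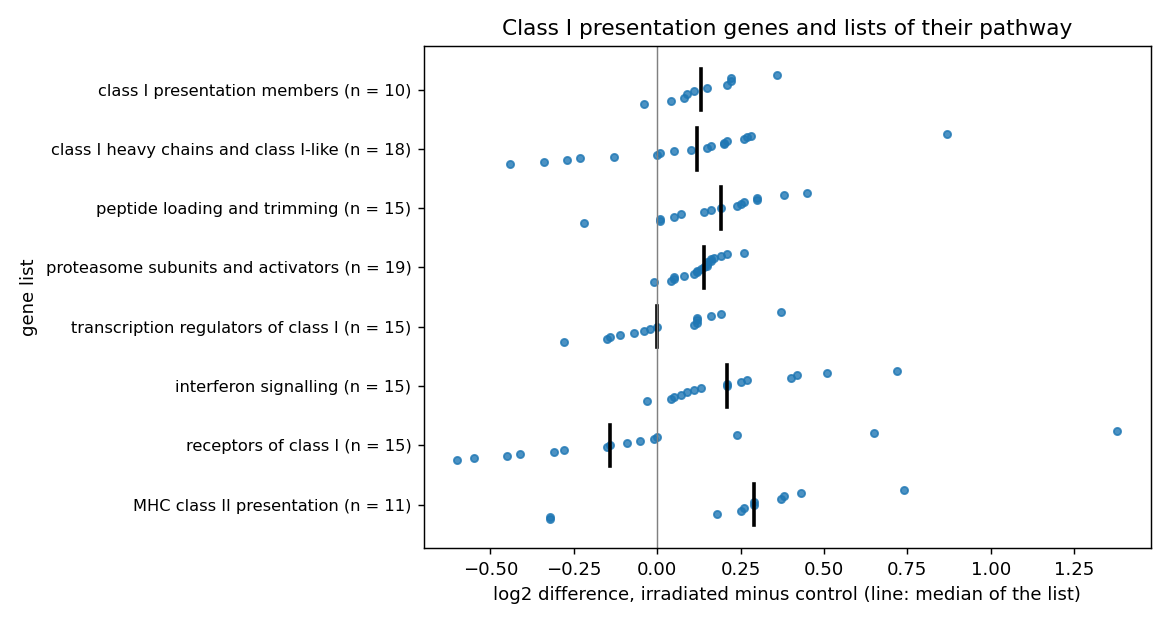
Log2 difference, irradiated minus control (x axis), of each gene in the 10 class I members and in 7 lists of related genes, with the black line at the list's median. List medians run from -0.14 (receptors of class I) to 0.29 (MHC class II presentation), with the 10 members at 0.13.

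Immune cell markers differed in how their array values lay beside those of the members. The T-cell list, with 8 of 8 markers well above background on all arrays, averaged 0.45 and 0.46 above the control mean on irradiated 2 and 3, and -0.42, -0.14 and -0.25 on irradiated 1, 4 and 5. Its summed intensity was 23400 to 33300 units on control and 17400 to 35200 on irradiated arrays. Dendritic cell markers had 5 of 5 measured differences above 0, with a median of 0.54, and averaged 0.33, 0.50, -0.60 and -0.24 on controls 1 to 4 and 0.00, 0.98, 0.85, 0.44 and 0.65 on irradiated 1 to 5, so that the groups overlapped. The summed intensity of that list was 11100 to 17600 units on control and 15900 to 26300 on irradiated arrays, and Xcr1 was the one marker of the list not well above background on all 9 arrays. Macrophage markers had 5 of 7 measured differences above 0, with summed intensities of 151000 to 214000 units on control and 167000 to 207000 on irradiated arrays. They averaged 0.11, 0.06, 0.18, 0.11 and 0.27 on irradiated 1 to 5 and so were not low on irradiated 1.

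The pan-leukocyte markers averaged 0.31, -0.06, -0.44 and 0.19 on controls 1 to 4 and -0.02, 0.41, 0.31, -0.14 and 0.19 on irradiated 1 to 5. They were thus high on control 1 and on irradiated 2 and 3, as the members were, and low on control 3, but near 0 on irradiated 1 and above 0 on control 4, where the members were at -0.24 and -0.12. Natural killer markers averaged 0.15 on irradiated 1 and -0.08, 0.12, -0.71 and -0.56 on irradiated 2 to 5. They had 0 of 5 differences above 0, and endothelial markers had 2 of 6. In the fit of all arrays with limma no measured marker of the lists described here had an adjusted p under 0.05. With the scan pair block Adgre1 (0.85, adjusted p = 0.0414), Cd14 (0.64, 0.0452), Cd209a (0.68, 0.0346) and the endothelial marker Tie1 (-0.30, 0.0466) passed, of which Cd14 and Tie1 were lost with the random block (adjusted p = 0.0562 and 0.0559 with an estimated correlation). With the random block Adgre1 (0.80, adjusted p = 0.00722) and Cd209a (0.63, 0.0152) passed, as did Mrc1 (0.60, 0.00458), Itgam (-0.47, 0.0415), Itgax (0.77, 0.0091), Tek (-0.80, 0.0274) and the type II alveolar marker Abca3 (-0.33, 0.0433). The part of these cell types in the class I values was not tested.

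**Figure D5:**
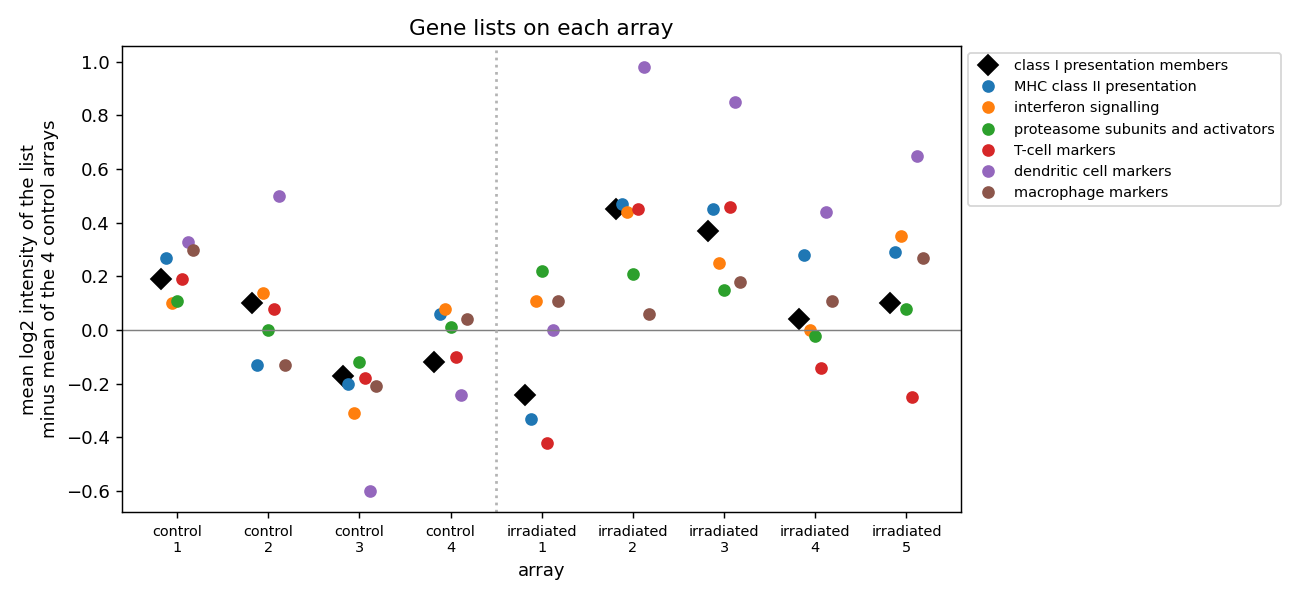
Mean log2 intensity of the 10 class I members (black diamonds) and of 6 other gene lists on each array, shown against the control mean. The members, the T-cell markers and the MHC class II genes are all high on irradiated 2 and 3, and all are low on irradiated 1.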

How the data were processed

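Total lung RNA was hybridized to 9 one-color Agilent arrays (4 control, 5 irradiated). The authors extracted spot intensity with Feature Extraction, and the deposited files hold processed signal as linear intensity, already background-subtracted, for 44397 spots per array, 1377 of them controls. The authors' quantile-normalized table of linear intensity (array medians 2054 to 2056, reference distribution not given in the sources used here) was an alternative, joined by spot position. The factor of 1.4 over local background comes from the study's methods, and asking for it on 4 or more arrays was a choice made here; probes that met it were kept (39303 of 39429), log2-transformed without pseudocount and quantile-normalized with limma 3.58.1 in R 4.3.3. Spots of a probe were averaged, and a gene was read from its brightest probe. Accessions were named through RefSeq symbols (26055 probes, 19751 symbols), and the files name no genome build, so the only positions printed are those of RefSeq promoter windows on GRCm38.p6. Groups were compared with limma (lmFit, eBayes with intensity trend, Benjamini-Hochberg over all probes, adjusted p under 0.05), and single members also by an exact permutation test over arrays. With this fit 131 probes (0.333%) passed. Scan pairs were inferred from spot positions, and deviations of paired arrays correlated at 0.201 to 0.455, whereas arrays of the same replicate number correlated at -0.167 to 0.0622, and these numbers were not used as pairs. Alternatives were normexp, percentile scaling, other filters, the authors' table, blocks, no trend, array weights, averaging a gene's probes and leaving out each array. The fit was tested on simulated data. All members are named, and of each pathway list the genes past the threshold in the fit of all arrays (there were none) and at most 2 others of largest difference; further genes are marked where named. Members and lists were chosen with earlier results of these data known. Between arrays the correlation was 0.9746 to 0.9898. The number of arrays limits the precision.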

Additional observations from a re-analysis of the deposited data

Results flagged for a closer look

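H2-D1 stood out on 1 array of each group. On control 2 it read 16.57 in log2 intensity, while the other 3 controls read 16.85 to 16.86. On irradiated 1 it read 16.47, while the other 4 irradiated arrays read 17.07 to 17.18. In both cases the gap to the nearest array was larger than Dixon's criterion allows for the group's range. These were 2 of 22 sets of values examined, and chance gives such a gap in about 5% of sets. Without control 2 the H2-D1 difference was 0.14, and without irradiated 1 it was 0.35.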

How the results depend on the processing

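The number of members with an adjusted p under 0.05 was 0 in the fit as reported and in all 21 alternatives, and the median of their differences, 0.13 as reported, ranged from 0.03 (without irradiated 2) to 0.23 (scan pair block, which has the same arrays as the fit without irradiated 1). Without control 3 it was 0.04, and without control 3 and irradiated 1 it was 0.14. H2-K1 ranged from 0.14 to 0.32, H2-D1 from 0.14 to 0.38 and B2m from 0.25 to 0.49, always above 0. Tap2, at -0.04, turned to 0.01 with 75th percentile scaling, 0.07 with the scan pair block, 0.02 with the random block, 0.04 with array weights and 0.07 without control 3 and irradiated 1, an alternative chosen after seeing the data. Leaving out single arrays moved Tap2 between -0.16 and 0.10, Psmb8 between -0.04 and 0.28, Psmb9 between -0.04 and 0.20, Psme1 between -0.02 and 0.11, Tap1 between 0.10 and 0.38, Tapbp between 0.02 and 0.16 and Nlrc5 between 0.01 and 0.33. The median of all genes moved by at most 0.041, with 75th percentile scaling. Of 131 probes past the threshold, the count became 197 with the filter on all 9 arrays, 44 with the authors' table, 44 without the intensity trend, 1101 with the scan pair block and 2899 with the random block. Leaving out control 1, 2, 3 or 4 left 49, 11, 5 or 8 probes, and leaving out irradiated 1, 2, 3, 4 or 5 gave 485, 13, 6, 21 or 37. The replicate numbers of the labels share only a number, and with the replicate block 1 probe passed and the members' median was 0.15. Pathway genes past the threshold went from 0 to 10 with the scan pair block, 12 with the random block, 2 without irradiated 1 and 2 without control 3 and irradiated 1, and ranged from 0 to 2 when single arrays were left out. For the changes in count the cause was not tested. All members were well above background on every array, with Tap1 the dimmest, whereas H2-T3 and Ifnb1 were near background. Cd160 and Klrc1, both counted in the receptor list, were well above background on 4 and 8 of the 9 arrays.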
